A study of Mus musculus with 103 samples.

Results

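Satellite cells, the stem cells of skeletal muscle, are recognised by the proteins they carry on their surface, and 9 genes that encode such proteins were followed here in RNA sequencing data of muscle stem cells from C57BL/6 mice. They were Calcr, Cxcr4, Vcam1, Ncam1, Cdh15, Cd34, Chodl, Megf10 and Cd82, a list of known markers whose members were found in the files by their symbols. All 9 were found among the 43283 genes with an Ensembl ID in the table of bulk libraries and among the 43282 in the table of single-cell wells. Values are TPM, a measure of transcript abundance that is corrected for gene length and scaled to the same total in every library.

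Each of these proteins does a different task at the cell surface. Calcr, the calcitonin receptor, is a G protein-coupled receptor that keeps mouse satellite cells quiescent, and collagen V is one of its reported ligands. Cxcr4 is the receptor of the chemokine Cxcl12, which guides migrating cells. Vcam1 binds integrins on neighbouring cells and is widely used to sort mouse satellite cells. Ncam1 and M-cadherin, encoded by Cdh15, join like molecules on adjoining cells, such as the satellite cell and its fibre. Cd34 is a sialomucin that quiescent satellite cells share with endothelial cells and with fibro-adipogenic progenitors, the connective tissue progenitors of muscle. Chodl encodes chondrolectin, a membrane protein with a C-type lectin domain. Megf10 is a receptor with epidermal growth factor-like repeats that takes part in engulfment and, in satellite cells, in proliferation. Cd82 is a tetraspanin, a membrane organiser that is used as a marker of human satellite cells.

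The bulk libraries were 3 from young, 2 from middle-aged (12 and 13 months) and 3 from old (24 months) untreated mice. The labels give the young bulk mice as 3 months in one field and 2 months in another. The wells were 31 from 1 old mouse (24 months) and 64 from 1 young mouse (3 months). The labels call the cells muscle stem cells and the design text calls them myoblasts. They name no sort gate, so which surface proteins, if any, served to isolate the cells is unknown. They describe a culture medium without saying if RNA came from fresh or from cultured cells. Pax7, the transcription factor that defines satellite cells, stood at 127 to 316 TPM in the 8 bulk libraries. The bulk libraries held 12849 to 17114 genes at 1 TPM or more. Read depth is unknown, and the precision of bulk values rests on the spread of 2 or 3 libraries. In bulk libraries, fewer cells of a type and less of a transcript per cell cannot be told apart.

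Chodl and Calcr are shown by the 250 bases before their transcription start, because their transcripts had like profiles across the bulk libraries. Chodl lies on chr16:78930948-78951733 of GRCm38, plus strand, and Calcr on chr6:3685680-3764714, minus strand. The sequences are RefSeq's (GRCm38.p6), 5′ to 3′ on the strand of the gene, from chr16:78930698-78930947 and chr6:3764714-3764963. Capitals mark the letters CANNTG, the E-box that myogenic factors can bind, which reads the same on both strands.
Chodl: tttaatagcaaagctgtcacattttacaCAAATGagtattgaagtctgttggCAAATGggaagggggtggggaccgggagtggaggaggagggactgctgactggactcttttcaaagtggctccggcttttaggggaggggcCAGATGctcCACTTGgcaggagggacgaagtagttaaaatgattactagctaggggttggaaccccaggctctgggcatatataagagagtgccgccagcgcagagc
Calcr: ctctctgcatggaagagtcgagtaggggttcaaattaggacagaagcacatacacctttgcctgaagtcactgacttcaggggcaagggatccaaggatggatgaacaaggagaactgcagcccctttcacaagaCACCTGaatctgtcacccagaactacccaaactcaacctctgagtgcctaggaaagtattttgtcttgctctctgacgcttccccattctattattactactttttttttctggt
The Chodl stretch held 4 such matches and the Calcr stretch 1. Of 32851 mouse promoters cut to the same length, 66.2% held at least 1 match, with a median of 1. The promoter of the other Calcr start in RefSeq held none. The letters TGGGAA, the core that the Notch effector RBPJ recognises, occurred on either strand in 21.6% of the promoters, 1 time in the Chodl stretch and in neither of the Calcr promoters. Promoters of 6 of the 9 genes were used here. None was used for Vcam1, Ncam1 or Megf10, which does not show that RefSeq lacks them. Megf10 is therefore not shown, although its profile was closer to that of Calcr (r = 0.89) than the profile of Chodl was (r = 0.84). A match of letters is a description and does not show binding.

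All 9 transcripts were present in every bulk library, and their order of abundance was nearly the same at each age. Of 4943 tested genes with a mean at least as high as the lowest of the 9, 13.1% were listed at 0 in at least 1 library. Chodl led with a mean of 664 TPM over the 8 libraries and ranked between place 54 and place 155 of all genes in each. Calcr followed with 202 TPM, Vcam1 with 189 TPM, Ncam1 with 139 TPM, Megf10 with 92.1 TPM, Cd34 with 69.5 TPM, Cxcr4 with 51.99 TPM, Cd82 with 36.3 TPM and Cdh15 with 17.4 TPM. At each age this order held, except that Vcam1 stood above Calcr in old libraries. The lowest Chodl library, at 351 TPM, stood above the highest Calcr library, at 315 TPM. Every other pair of neighbours in this order overlapped in its range over the 8 libraries. Cdh15 had the widest range, with a highest library 6.25 times the lowest, and Vcam1 the narrowest, at 1.90 times.

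**Figure D1:**
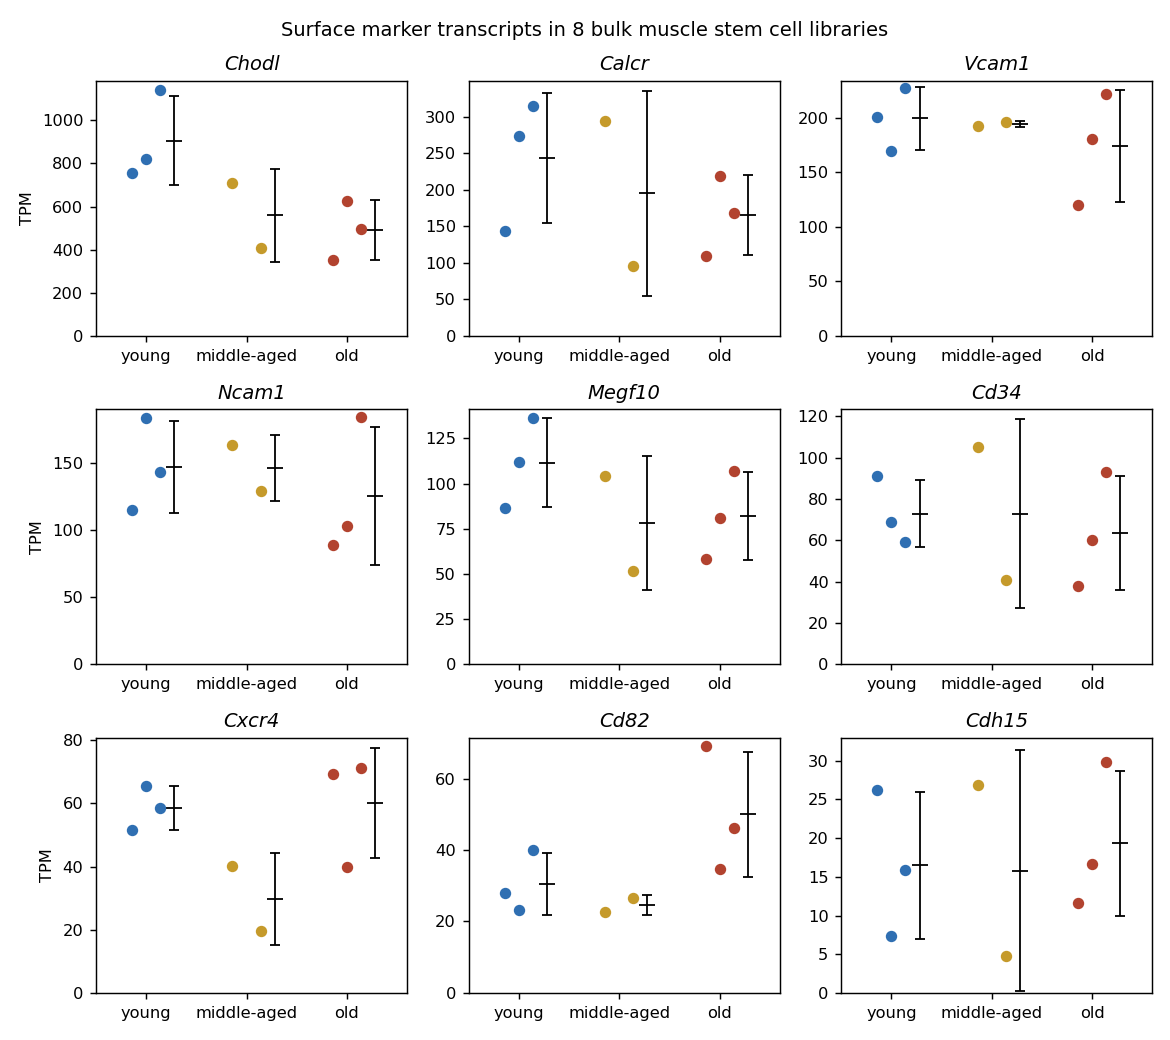
TPM of the 9 surface marker transcripts (y axis from 0, own scale per gene) in bulk libraries of young, middle-aged and old mice (x axis). Points are libraries, horizontal ticks the group mean and bars 1 SD. The 3 old and the 2 middle-aged libraries lie below the 3 young ones for Chodl, while most other genes overlap between ages.

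None of the 9 genes differed between ages by limma's moderated test with Benjamini-Hochberg adjustment over 22492 genes at a threshold of 0.05. In old against young libraries 0 of 9 passed, against 0% of all genes, and in middle-aged against young 0 of 9, against 0.00445% of all genes, or 1 gene. In old against middle-aged libraries it was again 0 of 9, against 0% of all genes. At an unadjusted p under 0.05, 1 of 9 (Chodl) differed in old against young libraries, where 5.89% of all genes did. In middle-aged against young it was 1 of 9 (Cxcr4), with a background of 7.78%, and in old against middle-aged 0 of 9, with a background of 6.19%. With 3 libraries against 3 or 2, the smallest p that an exact permutation test can give is 0.1.

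The count of differences below 0 depended on single libraries and on the scaling. In old against young libraries 7 of the 9 had a log2 difference below 0, with a median of -0.27, while 45.8% of all genes did, and 46.7% of genes whose mean reached 10 TPM, as that of each of the 9 did. The median of all genes was 0.00. Without old library 1 it was 5 of 9, with a median of -0.07, and scaled to Pax7 3 of 9. In middle-aged against young libraries 8 of 9 were below 0, with a median of -0.30, against 44.8% of all genes (48.3% of those reaching 10 TPM) and a median of 0.18. Without middle-aged library 2 it was 5 of 9, with a median of -0.04, and scaled to Pax7 1 of 9. In old against middle-aged libraries 5 of 9 were below 0, against 53% of all genes (49.1% of those reaching 10 TPM), with 1 to 7 of 9 when 1 library was left out. The count was 1 without old library 1 and 2 without middle-aged library 1. Both comparisons against young share the young libraries. Summed over the 9 genes, the TPM were 1501, 1722 and 2138 in young libraries, 971 and 1660 in middle-aged libraries and 916, 1362.5 and 1418 in old libraries. The old libraries lay below the young ones in this sum, but not once Chodl was left out. Without it the sums were 744, 903 and 996 TPM in young libraries, 949 and 564 TPM in middle-aged libraries and 565, 735 and 922 TPM in old libraries, and all ages overlapped.

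**Figure D2:**
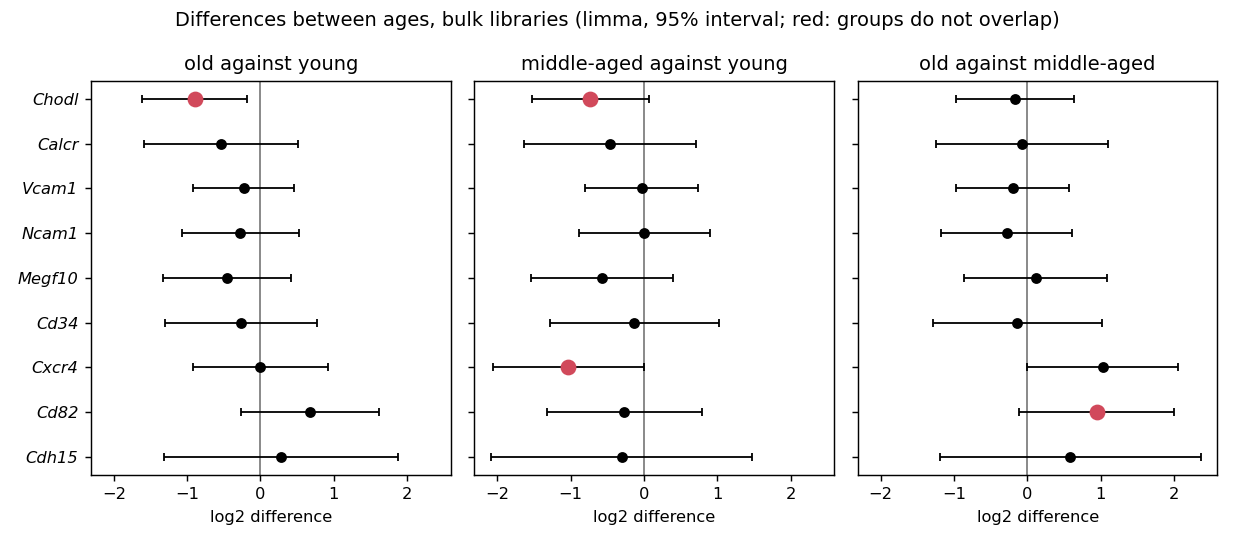
Log2 difference of log2(TPM + 1) (x axis) with its 95% interval from limma for each gene (y axis, most abundant on top), in old against young, middle-aged against young and old against middle-aged bulk libraries. Red points are genes whose groups do not overlap: Chodl in the first and second panels, Cxcr4 in the second and Cd82 in the third.

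Chodl showed the widest gap between old and young libraries. It had 351, 628 and 496 TPM in old libraries, against 758, 819 and 1142 TPM in young libraries. Every old library lay below every young one, as 4.16% of all tested genes did and 5.52% of those reaching 10 TPM. None of the 9 lay wholly higher in old than in young libraries, against 5.85% of all genes and 8.1% of those reaching 10 TPM. The means were 491 ± 139 TPM in old and 906 ± 207 TPM in young libraries (SD, n = 3 each). The log2 difference was -0.90 ± 0.32 (SE, 95% interval -1.62 to -0.18), with an unadjusted p of 0.019 and an adjusted p of 0.773 in limma, and a two-sided exact permutation test over libraries gave 0.1. The middle-aged libraries, at 711.07 and 406 TPM, also lay below all young ones, as 5.37% of all genes did, and 9.74% of those reaching 10 TPM. Their log2 difference from young was -0.73 ± 0.36 (SE, adjusted p = 0.626 in limma, exact p = 0.1), and it was -0.33 without middle-aged library 2 and -1.13 without middle-aged library 1. Old and middle-aged libraries overlapped, with a log2 difference of -0.17 and a 95% interval of -0.97 to 0.63. Leaving out any 1 library kept the old against young difference between -1.09 and -0.68.

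Calcr varied more among libraries of an age than between ages. It had 109.8, 219 and 168 TPM in old libraries, against 144, 273 and 315 TPM in young libraries, and 294 and 96.2 TPM in the middle-aged ones. The groups overlapped. The log2 difference of old from young was -0.54 ± 0.47 (SE, 95% interval -1.59 to 0.51, adjusted p = 0.839 in limma, exact p = 0.3). It was -0.27 without old library 1, -0.32 without young library 3 and -0.88 without young library 1. Around the group means, Calcr had an SD of 0.71 on the log2 scale, where the median of 268 genes within 0.5 log2 units of its level was 0.41 and 12.7% of them had a larger one. Both microRNA genes inside Calcr, Mir489 and Mir653, were listed at 0 in the bulk libraries, as was Mir7001 inside Cd82. Whether these libraries can capture microRNAs was not tested, so a listed 0 does not show that they are absent.

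Cxcr4 was the receptor that stood lowest in the middle-aged libraries. It had 40.1 and 19.5 TPM there, against 51.5, 65.6 and 58.7 TPM in young libraries. Both middle-aged libraries lay below all young ones, as 5.37% of all genes did and 9.74% of those reaching 10 TPM. The log2 difference of middle-aged from young was -1.03 ± 0.47 (SE, 95% interval -2.06 to -0.0018, unadjusted p = 0.0497, adjusted p = 0.626 in limma, exact p = 0.1), and -0.53 without middle-aged library 2. The old libraries, at 69.3, 40.0 and 71.1 TPM, overlapped with both other ages. Against young their log2 difference was -0.0023 ± 0.42 (SE), with a 95% interval that reached from -0.92 to 0.92. Against middle-aged it was 1.03 ± 0.47 (SE, adjusted p = 0.724 in limma, exact p = 0.3), and 0.53 without middle-aged library 2.

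The 3 adhesion molecules overlapped between all ages. Vcam1 had 120.02, 180.4 and 222 TPM in old libraries, against 201, 169.97 and 227 TPM in young libraries, and 192 and 196 TPM in middle-aged ones. Its log2 difference of old from young was -0.23 ± 0.31 (SE, 95% interval -0.92 to 0.46). It had the smallest spread of the 9 around the group means, an SD of 0.31 on the log2 scale. Ncam1 had 89.2, 103 and 184 TPM in old libraries, against 115, 183 and 144 TPM in young libraries, and 164 and 129 TPM in middle-aged ones. The log2 difference of old from young was -0.28 ± 0.36 (SE, 95% interval -1.08 to 0.52), and from -0.59 to -0.07 when 1 library was left out. Cdh15 had 11.6, 16.6 and 29.8 TPM in old libraries, against 26.2, 7.30 and 15.9 TPM in young libraries, and 26.8 and 4.76 TPM in middle-aged ones. Its log2 difference was 0.28 ± 0.72 (SE, 95% interval -1.31 to 1.88), the widest interval of the 9. A longer protein-coding gene model, Gm20388, spans Cdh15 on the same strand, so reads in shared exons may have been split between them. The adjusted p of the 3 genes in limma was 0.896, 0.889 and 0.981 for old against young, in the order in which they are described.

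Of the remaining 3, Cd82 stood highest in old libraries. It had 27.96, 23.3 and 40.1 TPM in young libraries, 22.55 and 26.5 TPM in middle-aged libraries and 69.0, 34.7 and 46.3 TPM in old libraries. All old libraries lay above both middle-aged ones, as 7.15% of all genes did and 10.8% of those reaching 10 TPM, and overlapped with the young ones. The log2 difference of old from middle-aged was 0.95 ± 0.48 (SE, adjusted p = 0.724 in limma, exact p = 0.2), and that of old from young 0.68 ± 0.43 (SE, 95% interval -0.27 to 1.62, adjusted p = 0.839 in limma, exact p = 0.2). Without old library 1 the old against young value was 0.42. Megf10 had 58.2, 81.2 and 107 TPM in old libraries, against 86.7, 112 and 136 TPM in young libraries, with 104 and 51.9 TPM in the middle-aged ones. Its log2 difference of old from young was -0.46 ± 0.39 (SE, 95% interval -1.33 to 0.41, adjusted p = 0.839 in limma), and from -0.67 to -0.23 when 1 library was left out. Cd34 had 37.8, 60.2 and 92.9 TPM in old libraries, against 91.0, 68.9 and 59.2 TPM in young libraries, and 105 and 40.7 TPM in middle-aged ones. Its log2 difference was -0.27 ± 0.47 (SE, 95% interval -1.30 to 0.77, adjusted p = 0.938 in limma), and 0.06 without old library 1. Genes on the opposite strand overlap exons of Cd34, Ncam1, Vcam1 and Cd82. Whether counting used strand is not given in the sources used here, and Gm10804, opposite Cd82, reached at most 30.6 TPM.

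A pair of libraries held the lowest value of 8 of the 9 genes. Old library 1 was lowest for Cd34, Vcam1, Ncam1 and Chodl, and middle-aged library 2 for Calcr, Cdh15, Megf10 and Cxcr4. Old library 1 was also highest for Cd82, at 69.0 TPM, and middle-aged library 2 for none of the genes. The same libraries gave mitochondrial transcripts the highest shares of their TPM, 46.5% and 42.2%, against 32.7% to 39.9% in the other 6. With the mitochondrial genes left out and TPM rescaled, the log2 difference of Chodl between old and young libraries was -0.87. Middle-aged library 2 also had the lowest Pax7, at 127 TPM, against 185 to 316 TPM in the others. Divided by Pax7 of the same library, Chodl was 2.46, 2.59 and 4.61 in young libraries, 3.08 and 3.19 in middle-aged libraries and 1.60, 2.55 and 2.68 in old libraries. On that ratio the old and young libraries overlapped.

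Across the 8 libraries Calcr, Chodl and Megf10 had the closest profiles of the 9. Pearson's r of log2(TPM + 1) was 0.89 for Calcr and Megf10 (Spearman's rho 0.83), 0.85 for Chodl and Megf10 (0.81) and 0.84 for Calcr and Chodl (0.79). With the mean of each age group removed the 3 values of r were 0.88, 0.84 and 0.92. Without the 2 libraries farthest from the median of the first gene, r was 0.63, 0.69 and 0.60. Among 22491 other genes, Megf10 held place 122 by its r with Calcr. Of the 36 pairs, 29 had a positive r, with a median of 0.43. Cd82 had a negative r with 6 of the other 8, down to -0.48 with Ncam1. These values describe 8 libraries whose TPM share a fixed total, and no test was made of them.

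Genes that act with the surface proteins did not pass the test at any age either. Of the calcitonin receptor's relatives and ligands, 0 of 10 tested genes passed for old against young (3 higher, 7 lower, median log2 difference -0.26). Calcrl, the related receptor for adrenomedullin and CGRP, had 14.9, 17.2 and 14.4 TPM in old libraries, against 29.4, 35.9 and 58.1 TPM in young libraries. The old libraries lay below all young ones, as 4.16% of all genes did and 5.52% of those reaching 10 TPM. The log2 difference of Calcrl was -1.30 ± 0.44 (SE, adjusted p = 0.730 in limma). Col5a1, a collagen V chain, had 14.6, 19.04 and 32.7 TPM in old and 22.01, 21.8 and 43.2 TPM in young libraries. Of the Cxcr4 axis 0 of 8 passed (median 0.19), and the ligand Cxcl12 had 15.2, 16.8 and 15.7 TPM in old libraries, against 18.01, 21.3 and 25.1 TPM in young libraries. Of the Vcam1 binding partners 0 of 7 passed (median 0.71). Itgb1, the integrin chain of its receptor, had 69.3, 121 and 125 TPM in old and 93.3, 115 and 111 TPM in young libraries.

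Of the Ncam1 partners 0 of 8 passed (median 0.26), among them Fgfr1, a growth factor receptor that Ncam1 binds, at 186, 152 and 257 TPM in old and 208, 209 and 134 TPM in young libraries. Of the cadherin and catenin genes 0 of 11 passed (median 0.27). Of the tetraspanins and Cd82 partners 0 of 10 passed (median 0.49), and the most abundant, Cd9, had 495, 1085 and 268 TPM in old and 350.03, 522 and 513 TPM in young libraries. Of the Megf10 relatives and Notch receptors 0 of 8 passed (median 0.32), of the Chodl relatives 0 of 4 (median 0.48) and of the Cd34 relatives and ligand 0 of 4 (median 0.11). Of 21 other surface genes of satellite cells 0 passed, with 16 higher and 5 lower in old libraries (median 0.21). Among these 21, 5 lay wholly higher and 1 wholly lower in old than in young libraries, against 5.85% and 4.16% of all genes. Of the satellite cell transcription factors 0 of 13 passed (4 higher, 9 lower, median -0.29), of the quiescence genes 0 of 14 (4 higher, 10 lower, median -0.19) and of the activation and differentiation genes 0 of 10 (median -0.01). The medians stand beside one of 0.00 for all genes, and the directions beside 12194 higher and 10297 lower of all 22492 tested genes.

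Of the markers of other cells, the summed levels of the Schwann cell and tenocyte lists did not overlap between old and young libraries, while those of the other lists did. All 12 Schwann cell markers had a log2 difference above 0 in old against young libraries, with a median of 2.26. Their summed level was 514 to 1377 TPM in old, against 112 to 206 TPM in young libraries, and it was 208 to 367 TPM in middle-aged ones. All 7 tested tenocyte markers were above 0 (median 1.27), with sums of 70.6 to 101 TPM in old, against 15.2 to 32.2 TPM in young libraries. Of the endothelial markers 6 of 8 were above 0 (median 0.35), with sums of 46.9 to 76.6 TPM in old, against 33.01 to 48.4 TPM in young libraries. Pecam1, which defines endothelial cells, had 6.25 to 13.7 TPM in old libraries, against 6.30 TPM in 1 young library and a listed 0 in the other 2. The sums were 937 to 1471 TPM in old, against 875 to 1151 TPM in young libraries for the fibro-adipogenic progenitor list, and 451 to 855 TPM in old, against 437 to 643 TPM in young libraries for the smooth muscle and pericyte list. Those of the macrophage list were 20.8 to 57.2 TPM in old, against 7.69 to 38.5 TPM in young libraries. Ly6a, of the fibro-adipogenic progenitor list, had 152, 72.3 and a listed 0 TPM in young libraries and 187 and 39.7 TPM in middle-aged ones. It was listed at 0 in all 3 old libraries (log2 difference of old from young -4.48, adjusted p = 0.738 in limma). Pdgfra had 29.4, 4.71 and 12.4 TPM in old libraries, against 17.8, 0 and 0.83 TPM in young libraries. The medians were 0.81 for 9 smooth muscle and pericyte markers, 0.25 for 11 fibro-adipogenic progenitor markers, 0.32 for 6 macrophage markers, -0.35 for 8 lymphocyte and pan-leukocyte markers and -1.23 for 5 red blood cell markers. Overlapping sums can hide single genes. Of the smooth muscle and pericyte markers 4 lay wholly higher in old than in young libraries and 1 wholly lower. Of the fibro-adipogenic progenitor markers 3 lay wholly higher and 1 wholly lower. The numbers were 8 and 0 of 12 Schwann cell markers and 2 and 0 of 7 tenocyte markers. Of all tested genes 5.85% lay wholly higher and 4.16% wholly lower. None of the listed markers passed the test in old against young libraries. Their part in the differences of the surface markers was not tested.

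The single-cell wells show in which wells the transcripts were found together, within the limits of 1 mouse per age. The wells differed in content before any gene is considered. Spike-in RNA took a median of 95.6% of the TPM in old wells and 66.6% in young wells. At least 1000 genes at 1 TPM or more were found in 7 of 31 old wells (22.6%, exact 95% interval 9.59% to 41.1%) and in 54 of 64 young wells (84.4%, 73.1% to 92.2%). The other 24 old wells held a median of 46 genes, and the other 10 young wells one of 68. Of the wells under 1000 genes, 19 of 24 old and 8 of 10 young ones had none of the 9 surface markers.

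**Figure D3:**
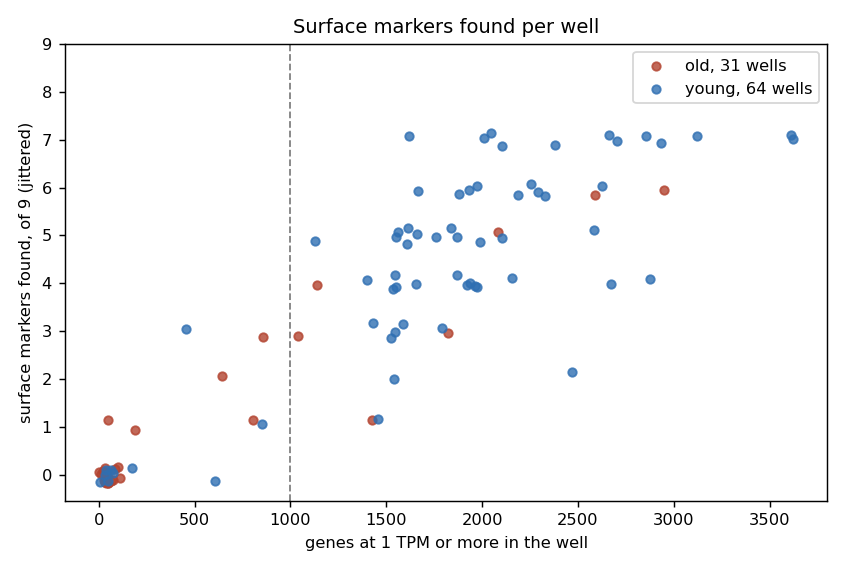
Surface markers found at 1 TPM or more (y axis, of 9, jittered for display) against genes found in the well (x axis) for 31 old and 64 young wells. The dashed line stands at 1000 genes. Wells to its left hold at most 3 of the markers, and wells to its right between 1 and 7.

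In wells with at least 1000 genes, a median of 4 of the 9 markers was found in old wells (range 1 to 6, 7 wells) and a median of 5 in young wells (range 1 to 7, 54 wells). No well held all 9. Among the young wells the number went with the genes found, as the 27 wells at or above the median of 1934 genes held a median of 6 markers, against 4 in the 27 below it. The read depth of a well cannot be taken from TPM, and its part in these numbers was not tested.

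Chodl and Ncam1 were the markers found in most young wells, each in 47 of 54 with at least 1000 genes (87.0%, exact 95% interval 75.1% to 94.6%). Cd82 was found in 41 (75.9%, 62.4% to 86.5%) and Cd34 in 39 (72.2%, 58.4% to 83.5%), beside Pax7 in 38 (70.4%, 56.4% to 82.0%). Calcr was found in 24 (44.4%, 30.9% to 58.6%), Vcam1 and Megf10 in 22 each (40.7%, 27.6% to 54.97%), Cxcr4 in 18 (33.3%, 21.1% to 47.5%) and Cdh15 in 10 (18.5%, 9.25% to 31.4%). The interval of Calcr lies below that of Chodl, while neighbours in this order overlap. For comparison, Pecam1 was found in 2 of these wells, the Schwann cell factor Sox10 in 1 and the leukocyte gene Ptprc in 0, which allows a share of up to 5.56%. At most 1 Schwann cell marker was found in any of the 54 young wells, and none in the 7 old ones. Markers of the fibro-adipogenic progenitor list were common by contrast. At least 1 of its 12 genes was found in all 7 old wells and in 51 of 54 young wells, and 3 or more in 3 old and 26 young wells. Gsn was found in 40 young wells, Dpt in 35, Col3a1 in 29, Dcn, which encodes the matrix protein decorin, in 19 and Col1a1 in 3, while Pdgfra and Ly6a, which define these progenitors, were found in 0 of the 7 old and 0 of the 54 young wells. Of the smooth muscle and pericyte list at least 1 gene was found in 6 old and 30 young wells, among them Tagln in 22 and Acta2 in 21 young wells, with Myh11 in 3 and Rgs5 in 1. Their part in the values of the surface markers was not tested in the wells. These intervals cover counting error over wells of 1 mouse only.

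**Figure D4:**
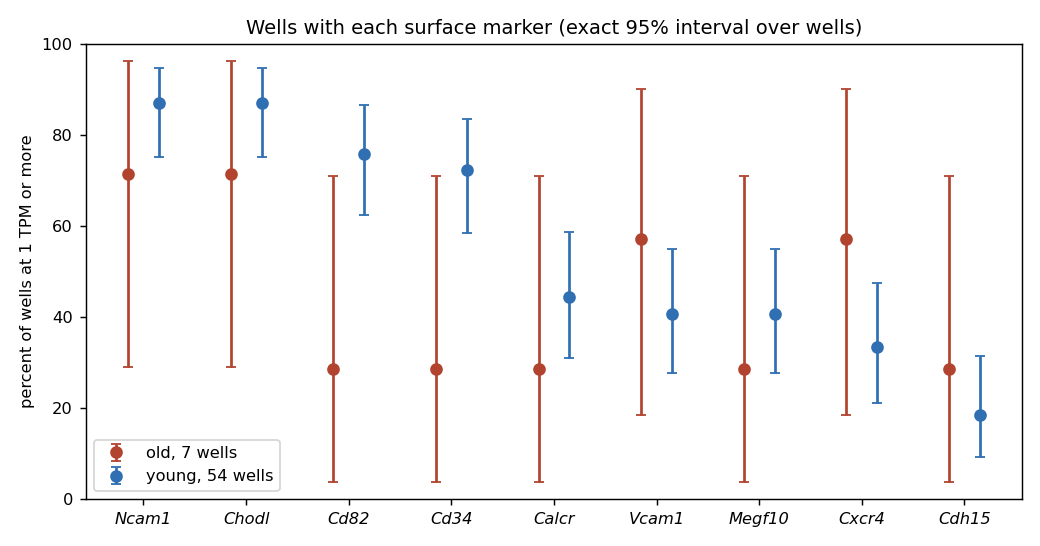
Percent of wells with at least 1000 genes in which each surface marker reached 1 TPM (y axis, 0 to 100), in 7 old and 54 young wells, with exact 95% intervals. Chodl and Ncam1 are highest in both, and the intervals of the old wells are wide.

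Levels in single wells ranged over orders of magnitude. With spike-ins removed and TPM rescaled, Chodl had a median of 664 TPM in the 47 young wells where it was found, from 4.91 to 3699 TPM. Its summed level was spread over many wells, with 33.6% of it in the top 5. Vcam1 behaved otherwise: its median was 85.7 TPM in 22 wells, its highest 2602.5 TPM, and 83.5% of its sum came from 5 wells. Calcr had a median of 113 TPM in 24 wells and a highest of 1822 TPM, with 68.3% of its sum in 5 wells. Ncam1, found as often as Chodl, had a median of 59.7 TPM. Cd82 had a median of 398 TPM in 41 wells and Cd34 one of 230.1 TPM in 39.

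The mean over the 54 young wells did not keep the order of the young bulk libraries, although the tables were normalised separately and their levels can be set side by side only roughly. Chodl led in both, at 795 TPM in wells and 906 TPM in bulk. Cd82 held place 2 in wells, at 479.6 TPM, and place 8 in bulk, at 30.4 TPM, which gives a ratio of 15.8. Cd34 stood at 302 TPM in wells and 73.0 TPM in bulk. Calcr had 136 TPM in wells and 244 TPM in bulk, Vcam1 175 TPM in wells and 199 TPM in bulk, and Ncam1 106 TPM in wells and 147 TPM in bulk. Megf10 had 33.8 TPM in wells and 112 TPM in bulk, and Cxcr4 13.7 TPM in wells and 58.6 TPM in bulk.

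**Figure D5:**
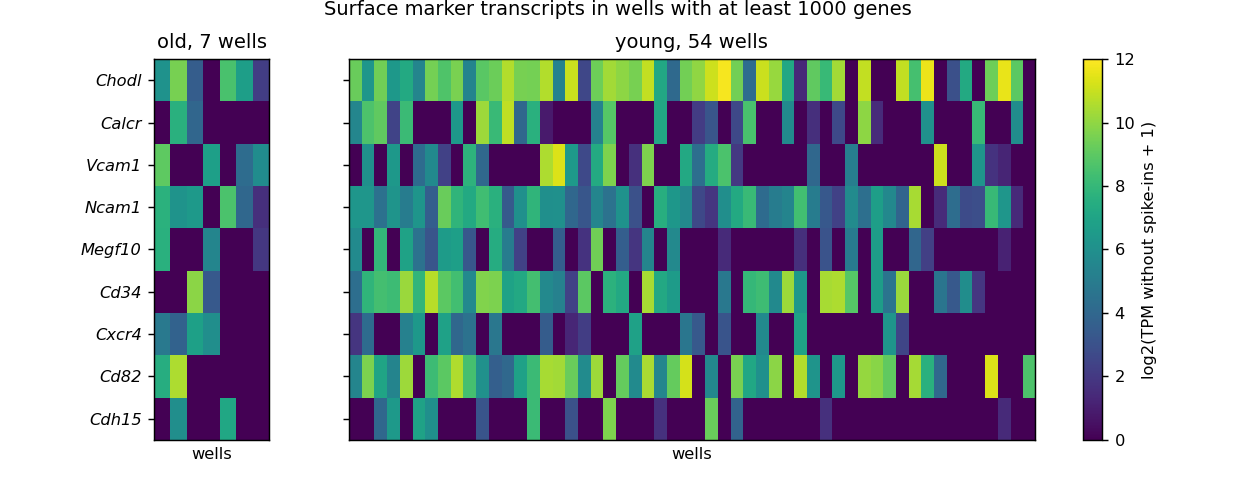
Level of each surface marker (rows, colour as log2 of TPM without spike-ins plus 1) in 7 old and 54 young wells with at least 1000 genes (columns, most markers found at the left). Chodl and Ncam1 fill most columns, while Vcam1, Calcr, Megf10, Cxcr4 and Cdh15 are scattered over different wells.

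The markers were found in differing combinations in the young wells, where a marker that was not found may still be present. Ncam1 and Chodl were found together in 42 of 54 (77.8%), and neither in 2. Chodl was found in 89.4% of the 47 wells with Ncam1 and in 71.4% of the 7 without. Vcam1 and Cd34, both used to sort satellite cells, were found together in 16 (29.6%, exact 95% interval 17.98% to 43.6%), Cd34 without Vcam1 in 23 and Vcam1 without Cd34 in 6. Cd34 was thus found in 72.7% of the 22 wells with Vcam1 and in 71.9% of the 32 without. Calcr, Vcam1 and Cd34 were found together in 4 wells, and none of them in 5. In total the 54 wells showed 43 different combinations of the 9 markers, and the commonest was seen in 4 wells. The number of markers found went with the genes found in a well (r = 0.53). The part of missed transcripts in these combinations was not tested. At levels rather than presence, r over the 54 wells lay between -0.19 (Calcr and Cxcr4) and 0.29 (Ncam1 and Cd82) for the 36 pairs, with a median of 0.03. For the trio with the closest bulk profiles it was 0.10 for Calcr and Megf10, -0.01 for Chodl and Megf10 and 0.18 for Calcr and Chodl. These values describe wells of 1 mouse with many values at 0.

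The markers were also set beside Pax7 and Myod1, which tell the state of the cell. Pax7 was found in 18 of the 22 young wells with Vcam1 (81.8%, exact 95% interval 59.7% to 94.8%) and in 20 of the 32 without (62.5%, 43.7% to 78.9%). It was found in 18 of 24 wells with Calcr (75.0%, 53.3% to 90.2%) and in 20 of 30 without (66.7%, 47.2% to 82.7%). Myod1, which is induced on activation, was found in 6 of 24 wells with Calcr (25%, 9.77% to 46.7%) and in 10 of 30 without (33.3%, 17.3% to 52.8%). All these pairs of intervals overlap. Among the genes most like each widespread marker over all 64 young wells were Ywhae, Rpl36-ps2 and Rpl36a-ps2 for Ncam1 (r = 0.67 to 0.64), Gpx3, Rpl31-ps8 and Rps9 for Chodl (0.65 to 0.64), and Rpl3 and Gm10157 for Cd82 (0.55 each). The median r over the 2099 genes compared was 0.28 for Ncam1, 0.23 for Chodl and 0.21 for Cd82. In the 54 wells with at least 1000 genes and without spike-ins that median was 0.05, -0.01 and 0.02, and of the genes named here only Gpx3 stayed among the first 3, with an r of 0.41 with Chodl.

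Between the old and the young mouse the wells allow values but no test. Over all wells, 7 of the 9 markers were lower by at least 1 in mean log2(TPM + 1) in old wells, where 48.4% of 3852 genes were, and 0 of 9 were higher by as much, against 0.026% of them. The 24 old wells with few genes are part of these means. In wells with at least 1000 genes and without spike-ins, 4 of 9 were lower by at least 1, against 21.2% of 5116 genes, and 1 of 9 was higher, against 13.4%. Cd82 was found in 2 of 7 old wells (28.6%, exact 95% interval 3.67% to 71.0%), against 41 of 54 young wells, and its mean log2 level, the mean of log2(TPM without spike-ins + 1), was 2.57 in old and 6.16 in young wells. Cd34 was found in 2 of 7 old wells and 39 of 54 young wells, with a mean log2 level of 1.90 in old and 5.45 in young wells. Chodl was found in 5 of 7 old wells (71.4%, 29.04% to 96.3%) and 47 of 54 young wells, with a mean log2 level of 5.24 in old and 7.62 in young wells. These counts of wells use TPM with spike-ins in the total, unlike the levels. A further old well reached 1 TPM of Chodl only without spike-ins, at 3.51 TPM. Calcr had a mean log2 level of 1.65 in old and 2.99 in young wells. Cxcr4 was the one that was higher, found in 4 of 7 old and 18 of 54 young wells, with a mean log2 level of 3.06 in old and 1.56 in young wells.

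Chodl had a log2 difference below 0 between old and young samples in both tables, -0.90 in bulk libraries and -2.39 in mean log2 level of the wells. So did Calcr (-0.54 and -1.33), Cd34 (-0.27 and -3.56), Ncam1 (-0.28 and -0.19) and Megf10 (-0.46 and -0.01). Cdh15 was above 0 in both (0.28 and 0.66). Vcam1 (-0.23 and 0.83) and Cxcr4 (-0.0023 and 1.50) were above 0 in the wells only. The median of all genes was 0.00 in bulk libraries and -0.25 in the wells. Cd82 had 0.68 in bulk libraries and -3.59 in the wells. The 7 old wells held a median of 1820 genes, against 1934 in the 54 young wells, and each age is 1 mouse.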

How the data were processed

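RNA was measured in 8 bulk libraries and 95 single-cell wells of muscle stem cells. The authors aligned reads to mm10 with STAR, per the submitters' processing notes. Its version, the annotation, the counting tool and the strandedness are not named in those notes or the labels. Both deposited tables hold TPM, per the labels. Bulk RNA was amplified with a NuGEN kit, per the labels' protocols. Of 45798 bulk entries, 43283 carried an Ensembl ID, 92 were spike-ins and 2423 were left out.

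Groups came from the labels, and libraries are from separate mice per the design text. Old, middle-aged and young libraries were fitted together with limma 3.58.1 (R 4.3.3) on log2(TPM + 1), for 22492 genes averaging 1 TPM or more, with an intensity trend and Benjamini-Hochberg adjustment within a comparison. Fold changes are on that scale and understate those of low genes. Exact two-sided permutation tests over libraries were added for the 9 genes. The limma step was tested on simulated data. Same-numbered libraries did not go together (r = -0.012 to 0.0049 after removal of group means), so numbers were not used as pairs.

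In wells, a gene was found at 1 TPM or more as deposited, with spike-ins in the total. Shares have Clopper-Pearson 95% intervals, and a count of 0 allows up to 3 wells. No test between ages was made, since each is 1 mouse. Levels in wells were rescaled to the usual TPM total without spike-ins. The rescaling, and a scaling of bulk TPM to Pax7, were chosen after seeing the data. Gene positions are from GENCODE M21. Of the list genes, 4 held under older symbols were matched by ID.

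The 9 genes and the 21 gene lists beside them were chosen with earlier results of these data known. From the lists, genes past the threshold and up to 3 of the most abundant could be named, with Pax7 and Myod1. Sox10, Pdgfra, Ly6a and Col1a1 were named outside that rule as role or defining genes, and Gsn and Tagln after their values were seen. For the 3 markers found in most young wells, the 3 genes with the highest r among those found in at least 25% of wells were named, except 1 that is not reported here. Alternatives were other pseudocounts (0.1 and 5), filters, scalings, a replicate block, leaving out libraries and, for wells, other thresholds. Well statistics used scipy 1.17.1, numpy 2.4.6 and pandas 2.3.3 in Python 3.11.15, with figures from matplotlib 3.10.9.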

Additional observations from a re-analysis of the deposited data

How the results depend on the processing

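In each of the 3 bulk comparisons 0 of the 9 genes passed the threshold under every alternative run, the replicate block included (0 genes of the 9 and 0 of all genes). Over all genes, leaving out 1 of the 2 middle-aged libraries gave 580 to 859 calls in the comparisons with that age. The remaining middle-aged library is then assumed to vary like the other groups. Of the 513 values of single genes under an alternative, 467 kept their direction and 46 were reversed, and the cause was not tested. Scaling to Pax7 moved the median of all genes by 0.24, 0.51 and -0.30 in the 3 comparisons. With it, old minus young was 0.15 for Cd34, 0.19 for Vcam1, 0.14 for Ncam1 and 0.41 for Cxcr4. Middle-aged minus young was 0.29 for Calcr, 0.61 for Cd34, 0.72 for Vcam1, 0.36 for Cdh15, 0.025 for Chodl, 0.18 for Megf10 and 0.46 for Cd82, and old minus middle-aged was -0.21 for Megf10. Quantile normalization, which moved that median by -0.16 in middle-aged against young, gave 0.0031 for Vcam1 and -0.016 for Ncam1 there, and 0.028 for Cxcr4 in old against young. Leaving out mitochondrial genes gave 0.022 for Cxcr4 in old against young and -0.016 for Ncam1 in middle-aged against young, median ratio scaling -0.046 for that Ncam1 value, and a pseudocount of 5 gave 0.00055 for the Cxcr4 value. The replicate block gave 0.12 for Vcam1 in middle-aged against young and -0.070 for Megf10 in old against middle-aged.

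Without 1 library each, old minus young reached from -0.58 to 0.057 for Cd34, -0.18 to 0.68 for Cdh15, -0.14 to 0.26 for Cxcr4 and -0.43 to 0.015 for Vcam1. Middle-aged minus young reached from -1.26 to 0.34 for Calcr, -0.81 to 0.55 for Cd34, -1.44 to 0.83 for Cdh15, -0.16 to 0.18 for Ncam1 and -0.14 to 0.071 for Vcam1. Old minus middle-aged reached from -0.88 to 0.72 for Calcr, -0.81 to 0.54 for Cd34, -0.55 to 1.72 for Cdh15, -0.57 to 0.23 for Chodl, -0.38 to 0.61 for Megf10 and -0.40 to 0.044 for Vcam1. The median of markers found per old well was 0 over all wells, 4 over wells with at least 1000 genes and 4 over wells with Pax7. In young wells it was 5, and 4 at a threshold of 5 TPM.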

Other observations

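Among the partners of the surface markers, Gfra1, a receptor for the neurotrophic factor GDNF, which can also signal through Ncam1, stood above both other ages in every old library. It had 33.15, 34.3 and 32.1 TPM in old libraries, against 13.75, 19.2 and 13.1 TPM in young libraries, and 11.55 and 15.3 TPM in middle-aged ones. The log2 difference of old from young was 1.08 ± 0.44 (SE, n = 3 each), with an adjusted p of 0.808 in limma. Msn, which encodes moesin, a protein that links membrane proteins such as Vcam1 to the cytoskeleton, had 193, 235 and 287 TPM in old libraries, against 161, 141 and 157 TPM in young libraries. Old and young libraries did not overlap, with a log2 difference of 0.62 ± 0.29 (SE) and an adjusted p of 0.833 in limma. Between old and young libraries, 5.85% of all tested genes lay wholly higher in the old, and 8.1% of those reaching 10 TPM. Between old and middle-aged libraries, 7.15% of all genes did and 10.8% of those reaching 10 TPM. Both genes are among the 3 most abundant of their lists, as the naming rule asks, but were picked from the named genes after their values were seen. The summed level of the Schwann cell markers was also higher in every old library than in any young one, and its part in these values was not tested.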
